A study of Emiliania huxleyi CCMP1516 with 36 samples.

Results

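Emiliania huxleyi is a marine haptophyte alga, and its strain CCMP2090 was grown here without bacteria in seawater-based medium under a light-dark cycle. The comparison is of 4 vehicle cultures collected 24 h after addition of 0.002% dimethyl sulfoxide (DMSO), the solvent, with 4 untreated parent cultures collected at time 0 and used to start the later cultures. These 8 libraries were chosen by their titles from 36, and every gene was examined. Neither group received 2-heptyl-4-quinolone (HHQ), the bacterial signalling molecule that other cultures of the study were given. Transfer into a new culture, 24 h of growth and the solvent all separate the groups and cannot be told apart. The labels do not give the hour of the light-dark cycle at which each group was collected. All cultures were of 1 strain, and the labels call the replicates biological.

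Haptophytes harvest light with a large family of membrane antenna proteins, the Lhcf proteins, which bind chlorophyll and carotenoids and pass energy to the photosystems. Chlorophyll is built from glutamate through a tetrapyrrole pathway, and the carbon fixed in the plastid moves through glycolytic reactions to lipids, storage compounds and respiration. Nuclear DNA is copied by the polymerases alpha, delta and epsilon together with a clamp loader, replication factor C, and in many algae division is timed by the light-dark cycle.

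Of 37212 genes in the table, 33295 had at least 1 count over the 36 libraries and 26494 passed the filter on low counts. Total estimated counts were 26204085, 17296339, 35898343 and 21972087 in the vehicle libraries, against 16029632, 14123734, 16310736 and 13123895 in the parent libraries. The first principal component, with 50.7% of the variance, separated the vehicle from the parent libraries. The second, with 17.8%, set vehicle replicate 4 and parent replicate 1 apart from the other 6 libraries. Levels below are in CPM, counts scaled to a common library total, after TMM scaling, a correction for RNA composition. Genes counted as called had an adjusted p below 0.05 in edgeR's quasi-likelihood test with Benjamini-Hochberg adjustment over all genes tested.

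The change across the transcriptome was broad. In the vehicle cultures 5015 genes were called, 18.9% of those tested, of which 2600 (9.81%) were higher and 2415 (9.12%) lower than in the parent cultures. Changes of at least 4-fold were found for 658 of the higher and 920 of the lower genes, and changes of at least 16-fold for 216 and 307. With the library totals alone as the scale, 1333 genes were higher and 2420 lower, so that 35.5% of the calls were higher in vehicle cultures in place of 51.8%. That scale moved the median of all genes to -0.14 on the log2 scale, from 0.08 with TMM. The vehicle and parent libraries did not overlap for 21.5% of the genes tested. Of 661 tested genes with a symbol, 152 were higher and 76 lower, 34.5% in all. Since this is bulk RNA, fewer transcripts per cell and fewer cells with the transcript cannot be told apart.

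**Figure D1:**
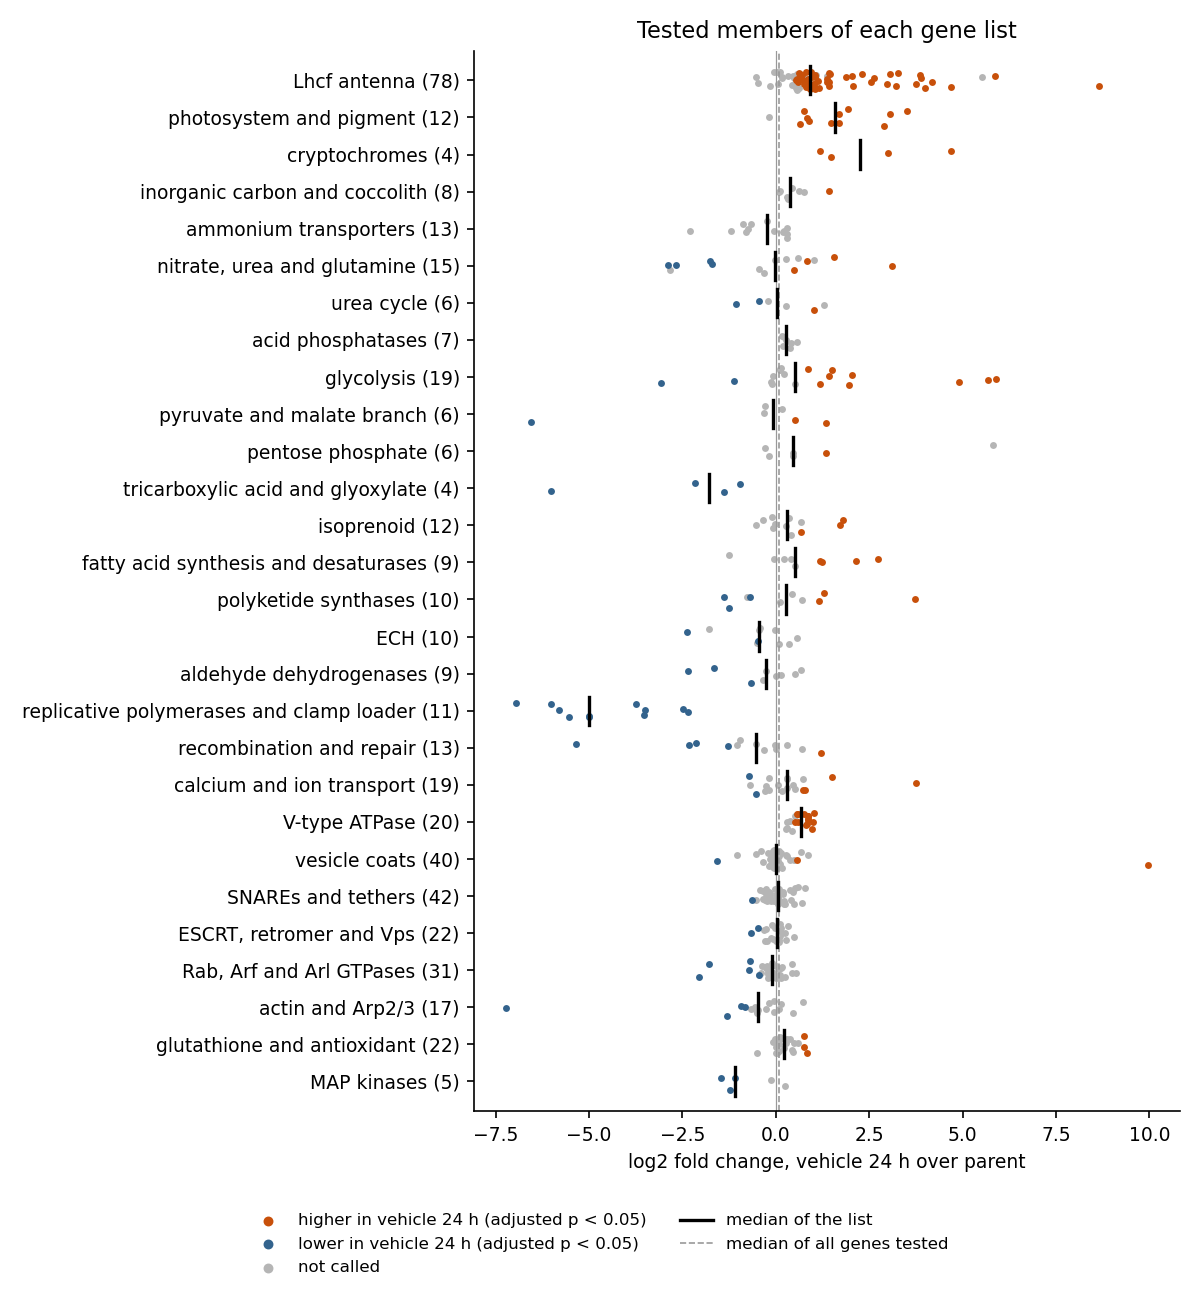
Log2 fold change of vehicle 24 h over parent for each tested member of 28 gene lists, with the number of tested members after each name. Bars are list medians and the dashed line is the median of all genes tested (0.08). The 11 replication genes all lie to the left, while 54 of 78 Lhcf genes and 11 of 12 photosystem and pigment genes are called to the right.

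The genes that copy nuclear DNA were low in every vehicle culture. All 11 tested genes of the replicative polymerases and the clamp loader were lower in the vehicle cultures, against 9.12% of all genes tested, and their median log2 fold change was -4.99 beside 0.08 for all genes. Together they took 0.000833% ± 7.17e-05 of the counts in vehicle libraries and 0.0158% ± 0.00244 in parent libraries (SD, n = 4 each). The 2 groups did not overlap for any of the 11, against 10.6% of all genes tested with the vehicle libraries lower. This rests on the same values as the calls. Genes near 0 in vehicle libraries, such as RFC2 and RFC3, may have passed the filter on low counts through the parent libraries. Such genes could only come out lower, in which case the count of 11 was partly set by the filter.

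RFC2, a clamp loader subunit, had 0.145, 0.0527, 0.187 and 0.408 CPM in the vehicle libraries, against 25, 22.8, 25.4 and 22.3 CPM in the parent libraries. It was 125-fold lower in vehicle cultures (log2 fold change -6.96 ± 0.53 (SE), adjusted p = 4.11e-12). The other loader subunits RFC3 and RFC5 were also lower, at -6.00 and -4.99 on the log2 scale. POLE1, the catalytic subunit of polymerase epsilon, had 0.289, 0.264, 0.453 and 0.543 CPM in vehicle libraries, against 22.4, 20.6, 22.6 and 21.5 CPM in parent libraries. Its parent libraries lay close together, and the decrease was 55.9-fold (-5.80 ± 0.41, adjusted p = 1.02e-12).

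For polymerase delta, POLD2 had 0.217, 0.316, 0.453 and 0.340 CPM in vehicle libraries, against 5.88, 11.8, 14.4 and 11.6 CPM in parent libraries (-5.00 ± 0.33, adjusted p = 2.03e-13). The catalytic subunit has 2 listed copies, POLD1-1 (-3.53) and POLD1-2 (-3.75), which fell together. Parent replicate 1 stood apart from the other parent libraries here, with the lowest POLD2 and the highest POLD1-1 and POLD1-2. POLA2, a subunit of polymerase alpha, fell by 3.51. POLE3, another epsilon subunit, named after its values were seen, had no count in 3 of 4 vehicle libraries.

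**Figure D2:**
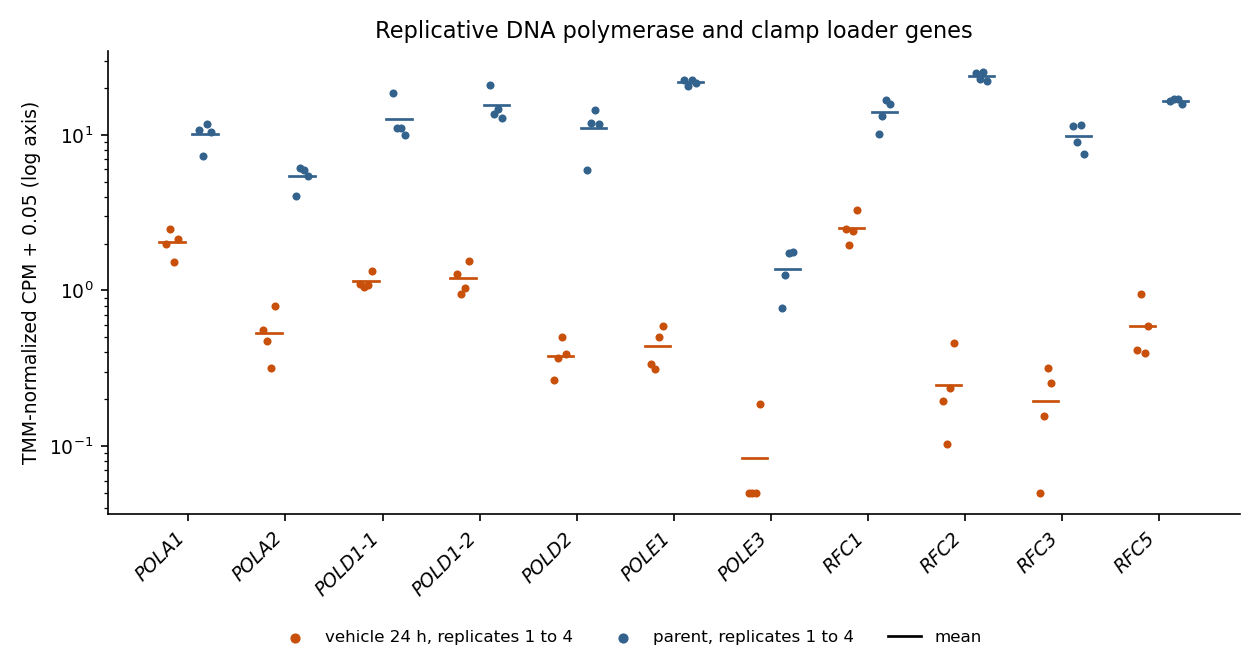
TMM-normalized CPM plus 0.05 on a log axis for 11 genes of the replicative polymerases and clamp loader, 4 vehicle 24 h and 4 parent libraries each, with the mean as a bar. For every gene all vehicle points lie below all parent points; RFC2 lies between 0.0527 and 0.408 CPM in vehicle and between 22.3 and 25.4 CPM in parent libraries.

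Genes with neighbouring roles moved less uniformly. Among 13 genes of recombination and repair, 4 were lower and 1 higher, beside 9.12% and 9.81% of all genes. mutS, a mismatch repair gene, had 0, 0.422, 0.426 and 0 CPM in vehicle libraries, against 7.99, 9.06, 9.39 and 11.9 CPM in parent libraries (-5.34 ± 0.67, adjusted p = 3.49e-07). Both subunits of topoisomerase VI were lower, Top6A by -2.32 and Top6B by -1.27 on the log2 scale. TYMK, named for thymidylate kinase, which makes a DNA precursor, fell by 5.55. MAN1, a member of none of the lists and named only for the size of its change, fell by 4.79. No role is stated for it here.

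The antenna genes were higher in the vehicle cultures. Of 85 Lhcf genes 78 were tested, 54 were higher and none was lower, against 9.81% and 9.12% of all genes. Lhcf transcripts took 13.5% ± 0.621 of all counts in vehicle libraries and 11.5% ± 1.31 in parent libraries (SD, n = 4 each), and the groups did not overlap. With library totals as the scale 39 were higher and none lower.

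The most counted antenna genes, down to Lhcf24 at rank 6, were not among those called. Lhcf32, which alone took 3.28% of the counts, had 29758, 30678, 26762 and 49428 CPM in vehicle libraries, against 28838, 30934, 30948 and 30293 CPM in parent libraries. In CPM, vehicle replicate 4 was far above the other 7 libraries, which overlapped (0.18 ± 0.26, adjusted p = 0.765), and without it the estimate turned to -0.06. CPM is divided by a TMM factor, which was 0.670 in vehicle replicate 4. The factor was 1.05 to 1.10 in the other vehicle libraries and 0.859 to 1.25 in the parent libraries. Without that factor, the summed Lhcf share of counts in vehicle replicate 4 was 12.8%, the lowest of the vehicle libraries. Lhcf66 (0.11), Lhcf65 (0.17) and Lhcf21_1 (0.48) were likewise not called. Of the 10 most counted Lhcf genes 4 were higher (median 0.56). Of the next 16, 12 were higher (median 0.64), of the next 26, 21 were higher (0.98), and of the last 26, 17 were higher (2.19). The antenna genes outside the 10 most counted took 4.41% ± 0.440 of the counts in vehicle libraries and 2.87% ± 0.198 in parent libraries.

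Among the members with the largest increases, Lhcf75 had 1738, 1438, 693 and 1637 CPM in vehicle libraries, against 68.2, 95.4, 71.8 and 113 CPM in parent libraries (3.98 ± 0.42, adjusted p = 6.49e-09). Lhcf36 had 308, 203, 135 and 58.5 CPM in vehicle libraries, against 4.07, 3.08, 1.73 and 3.30 CPM in parent libraries (5.86 ± 0.62, adjusted p = 6.72e-09). Both sets of libraries were separated by wide gaps, while the vehicle libraries differed several-fold among themselves. Lhcf37 had 3 counts in all parent libraries, in replicate 3 alone, and 28.1, 25, 15.9 and 12.8 CPM in the vehicle libraries. Its count ratio was 455 with an exact 95% interval of 156 to 2209, which covers counting error only. Lhcf47 (4.68), Lhcf41 (4.18), Lhcf34_2 (3.89), Lhcf35 (3.76) and Lhcf26_2 (3.27) rose as well. Some Lhcf symbols are numbered copies of the same name, and the similarity of their sequences was not examined here. Over all genes and libraries 45.8% of the deposited values are not whole, as when reads are divided among similar transcripts. The split between close members is therefore uncertain.

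**Figure D3:**
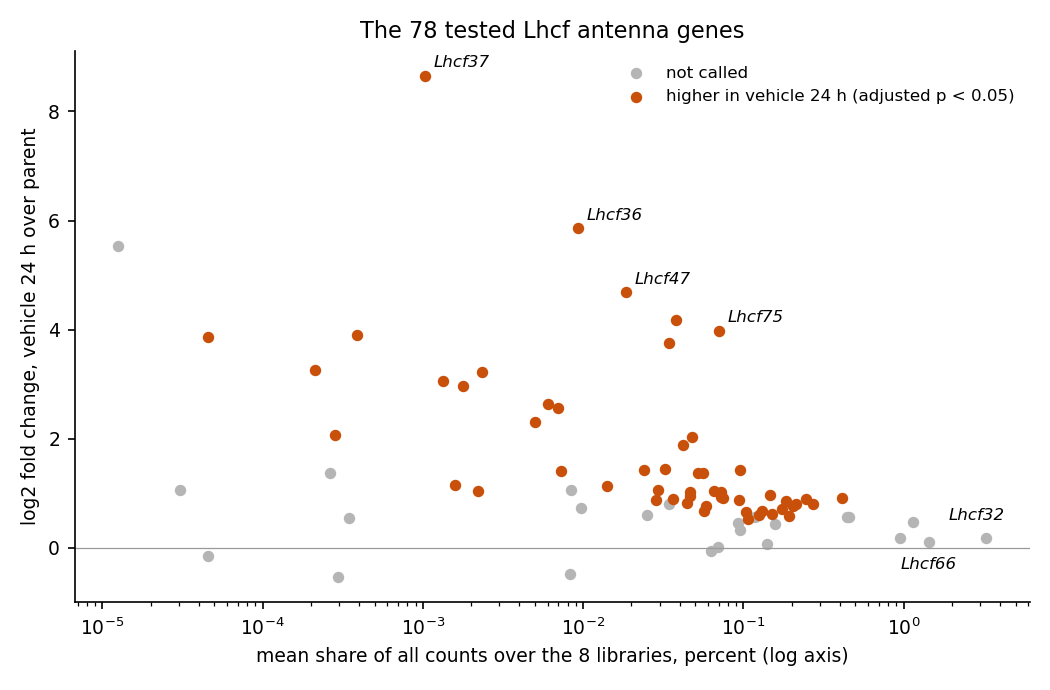
Log2 fold change of vehicle 24 h over parent for 78 Lhcf genes against each gene's mean share of all counts over the 8 libraries, in percent on a log axis. The called genes (orange) reach log2 fold changes of 8.65 at low shares, while Lhcf32 and Lhcf66 at the right lie near 0 and are not called.

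Genes for photosystem subunits and for chlorophyll and carotenoid synthesis also rose, 11 of 12 tested, against 9.81% of all genes. Their median log2 fold change was 1.58 beside 0.08 for all genes. With library totals as the scale 7 of 12 were called. GSA1, the aminotransferase that makes 5-aminolevulinate for tetrapyrroles, had 768, 846, 982 and 711 CPM in vehicle libraries, against 64.9, 68.2, 92.8 and 65.3 CPM in parent libraries. The lowest vehicle library was several times the highest parent library (3.51 ± 0.24, adjusted p = 3.32e-13). CPO, coproporphyrinogen oxidase, a later step, had 369, 407, 476 and 398 CPM in vehicle libraries, against 129, 126, 137 and 119 CPM in parent libraries (1.69 ± 0.17, adjusted p = 3.42e-09). The symbols UROD2 (1.70) and UROD3 (1.47), for uroporphyrinogen decarboxylase between these steps, rose too and are named after their values were seen.

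VDE2 and VDE3 are named for violaxanthin de-epoxidase, an enzyme of photoprotective carotenoid cycles. VDE2 had 46.4, 57.2, 42.4 and 59.4 CPM in vehicle libraries, against 4.43, 6.04, 6.17 and 7.77 CPM in parent libraries (3.07 ± 0.30, adjusted p = 1.05e-09). VDE3 rose by 2.91. The third gene of that name, VDE, was the member of the list that was not called, with 34.8, 34.1, 40.3 and 34.8 CPM in vehicle libraries and 47.4, 40.0, 40.6 and 36.3 CPM in parent libraries. The photosystem genes, like VDE named after their values were seen, rose less, PSBO-1 by 0.83, PSBO_2 by 0.77 and PSAE by 0.90 on the log2 scale. All 4 cryptochromes, blue-light receptor proteins, were higher (median 2.25), against 9.81% of all genes. With library totals as the scale 2 of 4 were called. CRY4 had 22, 24.3, 14.0 and 7.95 CPM in vehicle libraries, against 0.944, 0.604, 0.204 and 0.918 CPM in parent libraries (4.70 ± 0.51, adjusted p = 8.91e-09). CRY3 rose by 3.02. CRY2 (1.48, adjusted p = 0.0147) lost its call without vehicle replicate 1 or 2, with 1.24 and 1.05. CRY1 (1.18, adjusted p = 0.0222) lost its call without vehicle replicate 1 or 2 or without parent replicate 3 or 4, with values between 0.84 and 1.03.

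**Figure D4:**
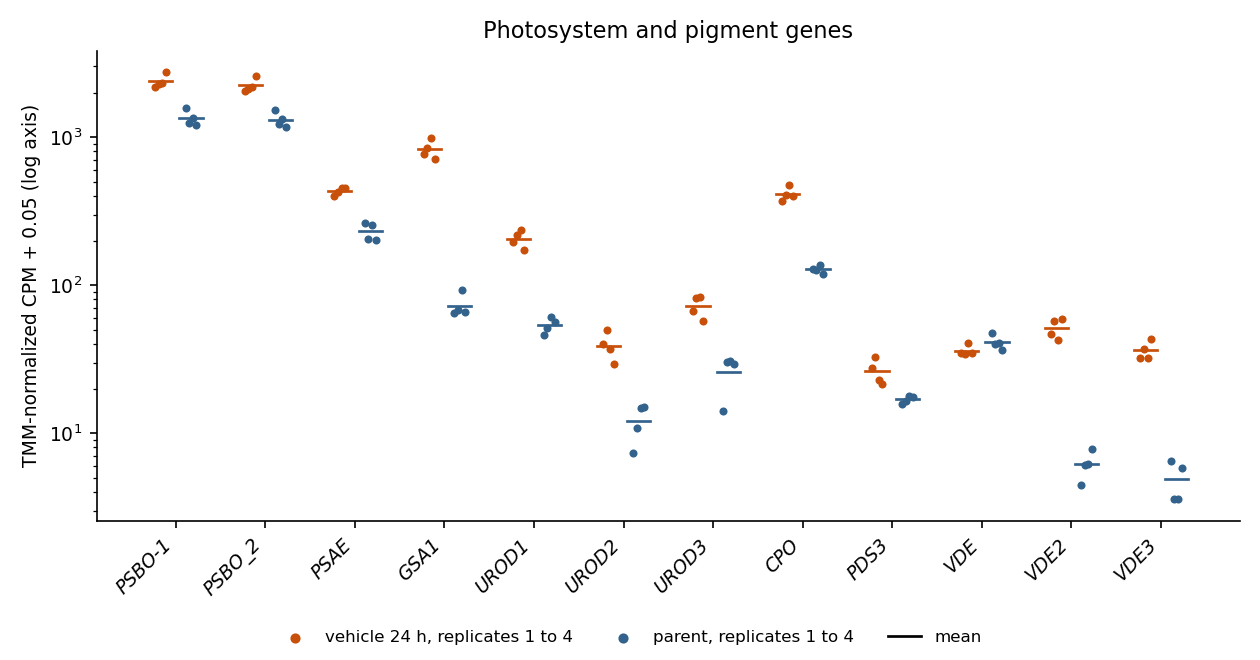
TMM-normalized CPM plus 0.05 on a log axis for 12 photosystem and pigment genes, 4 vehicle 24 h and 4 parent libraries each, with the mean as a bar. GSA1 lies between 711 and 982 CPM in vehicle and between 64.9 and 92.8 CPM in parent libraries, and VDE is the gene whose vehicle libraries are not above its parent libraries.

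Genes of central carbon metabolism moved in both directions. Of 19 glycolytic genes 9 were higher, 2 lower and 8 not called, beside 9.81% of all genes higher and 9.12% lower. All 4 tested genes of the tricarboxylic acid and glyoxylate cycles were lower (median -1.78). ENO1, an enolase, had 615, 586, 444 and 517 CPM in vehicle libraries, against 10.8, 8.03, 7.29 and 15.9 CPM in parent libraries, 51.4-fold higher in the vehicle cultures (5.68 ± 0.32, adjusted p = 6.94e-15). GAPN, named for the non-phosphorylating glyceraldehyde-3-phosphate dehydrogenase, had 67.5, 53.4, 17.1 and 41.2 CPM in vehicle libraries, against 0.363, 0.725, 0.816 and 1.04 CPM in parent libraries (5.90 ± 0.69, adjusted p = 4.00e-08). Of other glycolytic genes, the phosphoglycerate kinases PGK_1 (1.41) and PGK_2 (1.51) and the phosphoglycerate mutase gpmA (2.05) were higher. Apart from PGK_2, these and the next 2 genes were named after their values were seen. Another gene of each name, PGK1 (-0.10) and PGAM (0.14), was not called. 16PFK1, a phosphofructokinase symbol, moved the other way (-3.07 ± 0.30, adjusted p = 1.53e-09). It had 46.7, 39.7, 58.7 and 112 CPM in vehicle libraries, against 612, 551, 475 and 524 CPM in parent libraries. The 26PFK symbols, named after their values were seen, were mixed. For 26PFK1 and 26PFK3 every vehicle library lay above every parent library, for 26PFK4 below, and for 26PFK2 the groups overlapped.

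IDH1, an isocitrate dehydrogenase, had 4.16, 5.11, 10.6 and 12.9 CPM in vehicle libraries, against 568, 544, 509 and 498 CPM in parent libraries, 64.8-fold lower in the vehicle cultures (-6.02 ± 0.53, adjusted p = 1.27e-10). IDH2 (-2.16), the isocitrate lyase ICL1 (-1.39) and the fumarase FH (-0.96) were lower as well. The 2 pyruvate carboxylase symbols moved in opposite directions. PYC1 had 1.95, 2.00, 1.89 and 2.58 CPM in vehicle libraries, against 204, 205, 186 and 192 CPM in parent libraries, 93.8-fold lower with little spread in either group (-6.55 ± 0.33, adjusted p = 3.57e-16). PYC had 190, 210, 139 and 121 CPM in vehicle libraries, against 44.5, 67.4, 66.6 and 79.8 CPM in parent libraries (1.35 ± 0.24, adjusted p = 7.23e-05). The malic enzyme NAD-ME_1 (0.50) was higher, a call lost without any of vehicle replicates 1, 2 or 3 or parent replicates 2 or 4. Of the pentose phosphate genes 1 of 6 was higher, beside 9.81% of all genes. It was RPE2 (1.35), and its call was lost without vehicle replicate 3 (1.00).

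**Figure D5:**
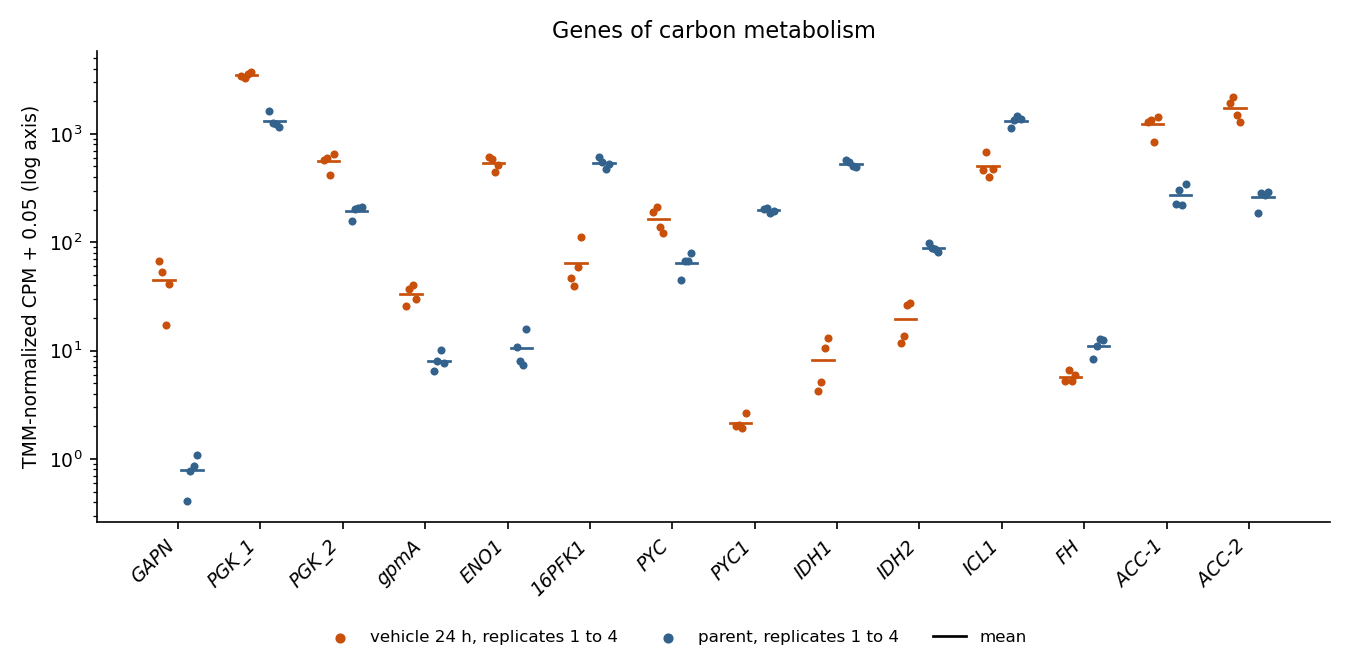
TMM-normalized CPM plus 0.05 on a log axis for 14 genes of carbon metabolism, 4 vehicle 24 h and 4 parent libraries each, with the mean as a bar. ENO1, GAPN, ACC-1 and ACC-2 lie higher in vehicle libraries, and PYC1, IDH1 and 16PFK1 lie lower.

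Genes of fatty acid synthesis rose for 4 of 9 tested and fell for none, beside 9.81% and 9.12% of all genes. ACC-2, an acetyl-CoA carboxylase, which makes malonyl-CoA, had 1923, 2182, 1498 and 1281 CPM in vehicle libraries, against 184, 287, 271 and 293 CPM in parent libraries (2.73 ± 0.27, adjusted p = 1.17e-09). ACC-1 rose by 2.16, and the fatty acid desaturase genes FADS1 and FADS2 by 1.23 and 1.18. Polyketide synthases, which also draw on malonyl-CoA, were mixed, with 3 of 10 higher and 3 lower. With library totals as the scale, 2 were higher and 4 lower, and likewise without vehicle replicate 4 and parent replicate 1. PKS5 (1.28) lost its call in both settings. PKS3 had 639, 822, 615 and 861 CPM in vehicle libraries, against 56.2, 52.3, 58.8 and 54.3 CPM in parent libraries (3.73 ± 0.25, adjusted p = 4.28e-13), and PKS1 fell by 1.37. For isoprenoids 3 of 12 were higher, beside 9.81% of all genes, and with library totals as the scale 2 were higher and 1 lower. DXPR1 (1.79), of the plastid pathway, and GGPS (1.73), which makes the geranylgeranyl chain used for chlorophyll and carotenoids, rose, and HMGR1 (0.67), of the mevalonate pathway, lost its call without vehicle replicate 2 or without parent replicate 2 or 3.

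Of the aldehyde dehydrogenases 3 of 9 were lower, led by ALDH10 (-2.34) and ALDH7 (-1.65), and 2 of 10 ECH genes were lower, led by ECH1 (-2.37), beside 9.12% of all genes. ALDH10 had 36.7, 43.9, 69.0 and 88.2 CPM in vehicle libraries, against 335, 305, 284 and 277 CPM in parent libraries. ECH6 (-0.47) lost its call without vehicle replicate 2 or 4 or without parent replicate 3. No list fixed here covered sulfur, shikimate or plastid import, and the following were chosen after their values were seen. SQD1 (1.52), which makes the sulfolipid head group, PAPR (1.42), named for a reductase of sulfate assimilation, and Tic110 (2.05), a protein of the plastid inner envelope import machinery, were higher. Of the shikimate pathway, which leads to aromatic amino acids, DAHPS (1.07), EPSPS1 (0.78) and AROM (1.38) were higher, and EPSPS1 lost its call with library totals as the scale (0.54). PGM_PMM (2.54), named for a phosphoglucomutase, was higher.

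Nitrogen genes showed no shared direction. None of 13 tested ammonium transporters was called (median -0.24, range -2.29 to 0.31). Without vehicle replicate 4 and parent replicate 1, none was higher and 1 was lower. Of 15 genes for nitrate, urea and glutamine 4 were higher and 4 lower, beside 9.81% and 9.12% of all genes. NII1, nitrite reductase, had 6.54, 5.33, 3.36 and 6.39 CPM in vehicle libraries, against 0, 1.15, 0.255 and 1.04 CPM in parent libraries (3.11 ± 0.44, adjusted p = 1.82e-06). GLN4 rose by 1.55, while GLN3 fell by 1.75 and URE2 by 1.69. In the urea cycle CPS1, carbamoyl phosphate synthetase, fell by 1.07 and ASS1, argininosuccinate synthase, rose by 1.02. ASL1 (-0.45), the next enzyme, lost its call without vehicle replicate 3. None of 7 acid phosphatases was called, with log2 fold changes between 0.18 and 0.57.

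Transport genes included a few large increases. NCKX2, named for a sodium, calcium and potassium exchanger, had 966, 949, 818 and 688 CPM in vehicle libraries, against 66.3, 65.4, 52.8 and 70.7 CPM in parent libraries, 13.4-fold higher in the vehicle cultures (3.74 ± 0.28, adjusted p = 3.24e-12). CAX3, a calcium and proton exchanger, had 453, 464, 462 and 445 CPM in vehicle libraries, against 160, 157, 168 and 159 CPM in parent libraries (1.5 ± 0.20, adjusted p = 4.76e-07). Of 19 calcium and ion transport genes 4 were higher and 2 lower, beside 9.81% and 9.12% of all genes, and with library totals as the scale 2 were higher and none lower. NHA2 (0.79) lost its call without vehicle replicate 4 or parent replicate 3, and NAH2 (0.73) without any of vehicle replicates 1, 2 or 3 or parent replicates 2 or 3. Among 8 genes of inorganic carbon and the coccolith, the anion exchanger AE3 (1.43) was the called gene, beside 9.81% of all genes called higher.

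The V-type ATPase, the proton pump of internal membranes, was higher for 14 of 20 tested genes, against 9.81% of all genes. The changes were small, between 0.28 and 1.04 with a median of 0.67. ATPVc/c'2 had 77.1, 68.9, 71.8 and 69.2 CPM in vehicle libraries, against 32, 36.3, 31.7 and 39.9 CPM in parent libraries (1.04 ± 0.21, adjusted p = 2.69e-04). With library totals as the scale 5 were called. The genes' share of the counts was 0.481% ± 0.0728 in vehicle libraries and 0.356% ± 0.0186 in parent libraries, and the ranges overlapped.

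Membrane traffic stayed near the median of all genes. Beside 9.81% of all genes higher and 9.12% lower, 2 of 40 vesicle coat genes were higher and 1 lower. Of 42 SNAREs and tethers 1 was lower, and of 22 ESCRT, retromer and Vps genes 2 were lower, at the share of all genes. The medians of these lists, 0.01, 0.05 and 0.04, turned to -0.20, -0.17 and -0.19 with library totals as the scale. The lower coat gene was Sar1c, a small GTPase of COPII coats, with 0.831, 1.16, 1.49 and 0.611 CPM in vehicle libraries, against 2.69, 2.84, 3.52 and 3.24 CPM in parent libraries (-1.56 ± 0.42, adjusted p = 0.00575). The largest increase was of Apm2-3, named for the mu subunit of the AP-2 adaptor, with 8.49, 7.33, 3.97 and 5.09 CPM in vehicle libraries and no count in any parent library. Against a floor of 3 counts over the parent group it was at least 134-fold higher in vehicle cultures. SEC23A (0.56, adjusted p = 0.0425) lost its call without any of the 8 libraries, VPS26 (-0.49) without vehicle replicate 4 or parent replicate 1, and VPS46A (-0.67) without parent replicate 1.

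Small GTPases and actin genes held decreases and no increases. Of 31 Rab, Arf and Arl genes 5 were lower, beside 9.12% of all genes, and 3 were lower without vehicle replicate 4 and parent replicate 1. Arf4-1 had 19.6, 17.7, 18.3 and 37.9 CPM in vehicle libraries, against 112, 78.3, 75.4 and 54.5 CPM in parent libraries (-1.78 ± 0.24, adjusted p = 8.95e-07), and Arf4-2 fell by 2.06. Of 17 actin and Arp2/3 genes 4 were lower, 7 with library totals as the scale and 2 without those libraries. ACT-6, an actin, had 581, 558, 631 and 901 CPM in vehicle libraries, against 1954, 1684, 1461 and 1472 CPM in parent libraries (-1.30 ± 0.20, adjusted p = 8.98e-06). ACT-4 had no count in any vehicle library and was at least 28.8-fold lower there, a call lost without any of the vehicle libraries or without parent replicate 1, and ARPC5-1 (-0.93) lost its call without vehicle replicate 4. Named after their values were seen, TUBB1 (-2.84), a beta-tubulin, and CAM1 (-1.39), a calmodulin, were lower.

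Of 5 MAP kinases, enzymes of signalling cascades, 3 were lower, beside 9.12% of all genes. MAPK6 had 6.94, 8.70, 10.8 and 9.85 CPM in vehicle libraries, against 35.6, 21.4, 20.8 and 22.5 CPM in parent libraries (-1.46 ± 0.23, adjusted p = 1.03e-05). MAPK3 fell by 1.22. Of 22 glutathione and antioxidant genes 3 were higher, near the 9.81% of all genes, the glutathione reductases GR1 (0.76) and GR2 (0.83) and GGT2 (0.76), and none was called with library totals as the scale. GGT2 lost its call without any of vehicle replicates 1, 2 or 4 or parent replicates 1, 3 or 4. SOD2A (-0.51) lay lower in every vehicle library than in any parent library but was not called. It was called lower with DESeq2, and also without vehicle replicate 3 or without parent replicate 2, 3 or 4.

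Some genes were found in only the vehicle or the parent libraries. No parent library held a count for 19 genes that had at least 10 counts in every vehicle library, and no vehicle library held one for 22 genes with at least 10 in every parent library. EMIHUDRAFT_121447, which has no symbol, had 15.8, 28, 11.7 and 7.81 CPM in vehicle libraries and no count in parent libraries, at least 340-fold higher in vehicle cultures. EMIHUDRAFT_436015, EMIHUDRAFT_247181, EMIHUDRAFT_442838 and EMIHUDRAFT_72106 were at least 276-fold, 160-fold, 160-fold and 116-fold higher. EMIHUDRAFT_51597 had no count in vehicle libraries and 68.1, 39.1, 49.1 and 38.1 CPM in parent libraries, at least 1576-fold lower in vehicle cultures. EMIHUDRAFT_352343, EMIHUDRAFT_423219 and EMIHUDRAFT_444838 were at least 908-fold, 766-fold and 723-fold lower. EMIHUDRAFT_310913 had 7 counts over the vehicle libraries, against 18694 over the parent libraries.

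Among the most counted genes without a symbol, EMIHUDRAFT_421124 had 9880, 9969, 9681 and 11618 CPM in vehicle libraries, against 2595, 2351, 2404 and 2393 CPM in parent libraries. The groups were well apart (2.08 ± 0.21, adjusted p = 3.12e-09). EMIHUDRAFT_370423 had 16438, 17672, 15500 and 26411 CPM in vehicle libraries, against 16672, 16760, 16774 and 16591 CPM in parent libraries, and was not called (0.19). Of 55 pairs of numbered copies of the same symbol, 11 were called in the same direction, 8 had 1 copy called, 36 had none, and no pair was called in opposite directions. Of all genes tested 18.9% were called, and of those with a symbol 34.5%. The median difference within a pair was 0.20 on the log2 scale and the largest was 3.65. Reads may have been divided among similar transcripts, so the values of close copies cannot be taken as independent. Pairs of unrelated genes were not compared.

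The vehicle cultures kept for 72 h show whether the 24 h levels of named genes lasted, as a description with no test. Of 123 named genes that were called at 24 h, the 72 h vehicle range overlapped the parent range in 15. The named genes were chosen for large changes, small p or high counts, or after their values were seen, with these same parent libraries. The count therefore does not speak for all called genes, for which no such overlap is given here. RFC2 averaged 23.9 ± 1.54 CPM in parent, 0.198 ± 0.151 CPM in 24 h vehicle and 0.300 ± 0.166 CPM in 72 h vehicle cultures (SD, n = 4 each). PYC1 averaged 197 ± 9.12 CPM in parent, 2.11 ± 0.319 CPM in 24 h and 1.06 ± 0.121 CPM in 72 h vehicle cultures. ENO1 averaged 10.5 ± 3.91 CPM in parent, 541 ± 76.2 CPM in 24 h and 401 ± 121 CPM in 72 h vehicle cultures. In these 3 genes the 72 h level lay near the 24 h level and far from the parent level. GSA1 had a 72 h mean of 633 ± 107 CPM and ACC-2 one of 1378 ± 250 CPM, both also far from the parent means of 72.8 ± 13.4 and 259 ± 50.6 CPM. Lhcf37 averaged 20.5 ± 7.28 CPM at 24 h and 90.0 ± 52.2 CPM at 72 h. Other genes lay closer to the parent level at 72 h. FADS1 averaged 30.3 ± 3.09 CPM in parent, 71.1 ± 5.00 CPM in 24 h and 34.7 ± 2.92 CPM in 72 h vehicle cultures, and GLN4 averaged 419 ± 58.7, 1232 ± 273 and 622 ± 104 CPM in the same order. ICL1 averaged 1323 ± 131 CPM in parent, 505 ± 124 CPM in 24 h and 1213 ± 144 CPM in 72 h vehicle cultures, and the 72 h range of 1019 to 1341 CPM overlapped the parent range.

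Cultures given HHQ at 1 ng/ml, the lowest dose, also hold the solvent and were also collected at 24 h. RFC2 averaged 0.332 ± 0.0758 CPM, PYC1 2.48 ± 1.14 CPM, IDH1 9.99 ± 6.16 CPM, ENO1 639 ± 95.7 CPM and GSA1 812 ± 32.6 CPM in them (SD, n = 4). In the vehicle cultures at 24 h IDH1 averaged 8.20 ± 4.24 CPM and GSA1 827 ± 117 CPM. For these 5 genes the HHQ and vehicle libraries lay together, far from the parent libraries.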

How the data were processed

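The authors deposited estimated counts per gene, made with Salmon 0.12.0 after trimming with Trimmomatic 0.38, per the submitters' processing notes; the genome build was not given in the sources used here. Libraries were stranded and poly(A)-selected, per the labels' protocols. Of the values 45.8% were not whole, and they were rounded. Depth was 17296339 to 35898343 counts in vehicle and 13123895 to 16310736 in parent libraries. All 36 libraries in 9 groups entered 1 edgeR 4.0.16 quasi-likelihood fit (R 4.3.3) with TMM scaling and filterByExpr, since the groups then share 1 estimate of spread, and the contrast was vehicle at 24 h minus parent, with Benjamini-Hochberg adjustment over 26494 genes. CPM values are scaled by TMM. Standard errors are the fold change over the square root of F. The fit was tested on simulated data. Fold limits use 3 counts over a group, and intervals cover counting error only. Alternatives, including DESeq2 1.42.0, are in the closing section.

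Symbols came from the RefSeq table of CCMP1516, which matched 37202 of 37212 identifiers. Named genes were those with a symbol, a mean of at least 1 CPM, no overlap and the largest called change (15 in each direction, of which 2 are not reported here), the 4 members of each list with the smallest p, the 5 genes without a symbol with the largest called change in each direction, and the 5 most counted genes of each group. The members and lists were chosen with earlier results of these data known, and the lists were built from the symbols in the table. Planned lists with fewer than 3 tested symbols (histones, ribosomal proteins and the proteasome among them) were not used. Same-numbered vehicle and parent libraries had correlations of their deviations between -0.16 and 0.11. The numbers were not taken as pairs in the main fit, although these correlations cannot exclude pairing.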

Additional observations from a re-analysis of the deposited data

Results flagged for a closer look

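In each group of 4 libraries the highest or lowest value was looked at for its gap to the nearest other library as a share of the group's range. Of 343 such sets 29 were past Dixon's 95% critical value for 4 libraries, and chance gives about 1 in 20. Vehicle replicate 4 held 10 of them and parent replicate 1 held 13, the libraries that the second principal component set apart. Their TMM factors, 0.670 and 0.859, were the lowest of their groups, and CPM is divided by that factor. Of the fold changes of 152 named genes, 3 changed sign when both libraries were left out, 10 lost their call and 3 gained one.

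In vehicle replicate 4, PYC1 was high at 2.58 CPM with a gap of 0.839, POLD1-1 was high at 1.29 CPM with a gap of 0.840 and ASS1 was high at 506 CPM with a gap of 0.936. It was also the highest of its group for Arf4-1 at 37.9 CPM with a gap of 0.903 and EMIHUDRAFT_310913 at 0.408 CPM with a gap of 0.935. EMIHUDRAFT_421124 was high there at 11618 CPM with a gap of 0.851, and so was the isoprenoid share of counts at 0.211% with a gap of 0.841. Its share was the lowest for glycolysis at 0.373% with a gap of 0.856, for the V-type ATPase at 0.373% with a gap of 0.839 and for the glutathione and antioxidant genes at 0.0569% with a gap of 0.909.

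In vehicle replicate 3, AE2 was high at 2.45 CPM with a gap of 0.834, Rab18 was high at 26.4 CPM with a gap of 0.903 and PKS5 was low at 1.25 CPM with a gap of 0.961. SOD2A at 137 CPM with a gap of 0.909 and VDE at 40.3 CPM with a gap of 0.892 were also high there. In parent replicate 3, GSA1 was high at 92.8 CPM with a gap of 0.882.

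In parent replicate 1, POLD1-1 was high at 18.5 CPM with a gap of 0.872, SLC4-1 was high at 351 CPM with a gap of 0.885 and ASS1 was high at 251 CPM with a gap of 0.840. Also the highest of their group there were MAPK6 at 35.6 CPM with a gap of 0.881, MAPK3 at 20.7 CPM with a gap of 0.846 and Lhcf65 at 11226 CPM with a gap of 0.837. The MAP kinase share of counts was high at 0.0941% with a gap of 0.890. The same library was the lowest for PGK_2 at 157 CPM with a gap of 0.859 and FADS1 at 25.6 CPM with a gap of 0.904. EMIHUDRAFT_444838 at 16.4 CPM with a gap of 0.921 and UROD3 at 14.1 CPM with a gap of 0.898 were low as well. Its shares were low for the tricarboxylic acid and glyoxylate genes at 0.156% with a gap of 0.850 and for the aldehyde dehydrogenases at 0.0816% with a gap of 0.942.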

How the results depend on the processing

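The count of 5015 called genes lay between 3753 and 5974 under every alternative tried except the replicate block in the fit of the 8 libraries alone. That fit called 3299 genes, 1653 of them higher and 1646 lower, while the replicate block in the fit of 36 libraries called 5974. The labels do not say what a replicate number marks. No vehicle library deviated most like the parent library of its own number, but with 4 libraries per group this cannot exclude pairing. DESeq2 called 5730, and library totals as the scale called 1333 genes higher. Leaving out 1 library at a time gave 4277 to 4931 called genes, 1991 to 2551 higher and 2279 to 2676 lower, and leaving out vehicle replicate 4 and parent replicate 1 gave 4365. Signs turned for genes that were not called. NAD-ME_2 was -0.085 with library totals. Lhcf32 was -0.108 with library totals, -0.079 without both libraries and between -0.056 and 0.18 without single ones, and Lhcf66 was -0.17, -0.137 and between -0.115 and 0.12. EMIHUDRAFT_370423 was -0.083, -0.014 and between -0.013 and 0.187 in the same order. Lhcf65 was -0.063 with library totals and between -0.018 and 0.313 without single libraries. The cause was not tested. Depth limits genes with a few counts, for which a gene at 0 gives a bound and no fold.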

Other observations

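Among the pairs of numbered copies, VPS34-1, named for a phosphatidylinositol 3-kinase of vesicle traffic, had a log2 fold change of -2.55 and was called, and VPS34-2 had 0.04 and was not. The pair was picked out after its values were seen, and the difference between the copies was not tested.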
